A study of Macaca fascicularis with 2 samples.

Results

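Lipid transport between cells of the testis was followed through 4 genes: the carriers APOD and APOE and the transporters ABCA8 and ABCA1. Each was found by its symbol among the 28845 features of the count matrices, with 1 row per symbol. They were read in stromal, peritubular myoid, macrophage, Sertoli, Leydig and endothelial cells, picked by marker genes. The material was testis of cynomolgus monkey (Macaca fascicularis), dissociated with collagenase and dispase and sequenced as single cells from the 3′ end. UAT is the testis lying in the abdomen on one side, and CST is the scrotal testis of the other side. Each position is 1 library, so position, animal, side, digestion and library cannot be told apart. Age, number of animals, whether UAT and CST come from 1 animal, any treatment and how the abdominal position arose are not given in the sources used here. Levels are unique molecular identifiers (UMIs, the copies counted once per captured RNA) in CPM, the UMIs of the gene in each 1000000 UMIs of the cells named. With 1 library per position there was no test. Ratios carry exact 95% intervals that cover counting error only, not the spread between animals. The 4 genes were named with the UAT and CST levels of these same libraries in view, so each ratio is a description.

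Cholesterol and phospholipids leave a cell through ATP-binding cassette transporters, are taken up by apolipoproteins outside it, and enter other cells through lipoprotein receptors. In the testis, Leydig cells turn cholesterol into testosterone, and Sertoli cells and macrophages take up lipid from dying germ cells. APOE is the ligand that lipoprotein receptors bind, APOD is a small lipocalin that binds arachidonic acid and progesterone, ABCA1 loads cholesterol onto apolipoproteins under control of liver X receptors (LXR), and ABCA8 is a related transporter linked to cholesterol efflux.

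The UAT library held 12564 barcodes and 111047299 UMIs, and the CST library 15952 barcodes and 197225937 UMIs; 50 barcode sequences occurred in both. After a minimum of 500 genes and removal of simulated-doublet neighbours, 11131 UAT and 13201 CST cells were left. A cell was given a class when its cluster was named from fixed markers and the cell itself showed at least 2 of them. The gates held 4538 UAT and 1598 CST stromal-like cells, 1564 UAT and 417 CST myoid-like cells, 620 UAT and 86 CST macrophage-like cells, and 1393 UAT and 368 CST blood endothelial-like cells. There were 270 UAT but 9 CST Sertoli-like cells, and 207 UAT but 2 CST Leydig-like cells, so both classes have levels but no ratio. DCN, a collagen-binding matrix protein of fibroblasts, stood at 15076 CPM in UAT and 16256 CPM in CST stromal-like cells, and at 192 CPM in UAT and 32.3 CPM in CST blood endothelial-like cells. In UAT, AMH stood at 729 CPM in Sertoli-like cells and INSL3 at 47583 CPM in Leydig-like cells, hormones that define these types. The testis-specific protamine PRM1 was at 0.3 CPM in UAT and 1849 CPM in CST stromal-like cells, so RNA of germ cells was counted with other cells in the CST library. The level of T or NK-like lymphocytes (414 UAT and 125 CST cells) was taken as the level free RNA can reach. It was 67.1 CPM in UAT and 7.8 CPM in CST for APOD, 171 CPM in UAT and 15.7 CPM in CST for APOE, 20.1 CPM in UAT and 0 CPM in CST for ABCA8, and 50.9 CPM in UAT and 23.5 CPM in CST for ABCA1. A level whose lower bound does not pass the upper bound of that one is read here as background. This label does not show that a class lacks the gene. Whether the lymphocytes make any of the 4 genes themselves was not tested. They were shallow, with a median of 3070.5 UMIs in UAT, against 24358.5 UMIs in UAT Sertoli-like cells. INSL3 was at 103 CPM in the UAT lymphocytes and 41.0 CPM in the UAT Sertoli-like cells, so the free RNA level was not the same in every class. The Leydig markers CYP17A1 and STAR ran the other way. They were at 15.4 and 3.1 CPM in the UAT lymphocytes and at 108 and 76.5 CPM in the UAT Sertoli-like cells. Whether Sertoli-like cells make CYP17A1 and STAR themselves was not tested. All 4 genes were themselves past 1.5-fold higher in UAT in the T or NK-like class, where 14.0% of 7376 genes were higher and 23.5% lower, so this background is uneven between the libraries.

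**Figure D1:**
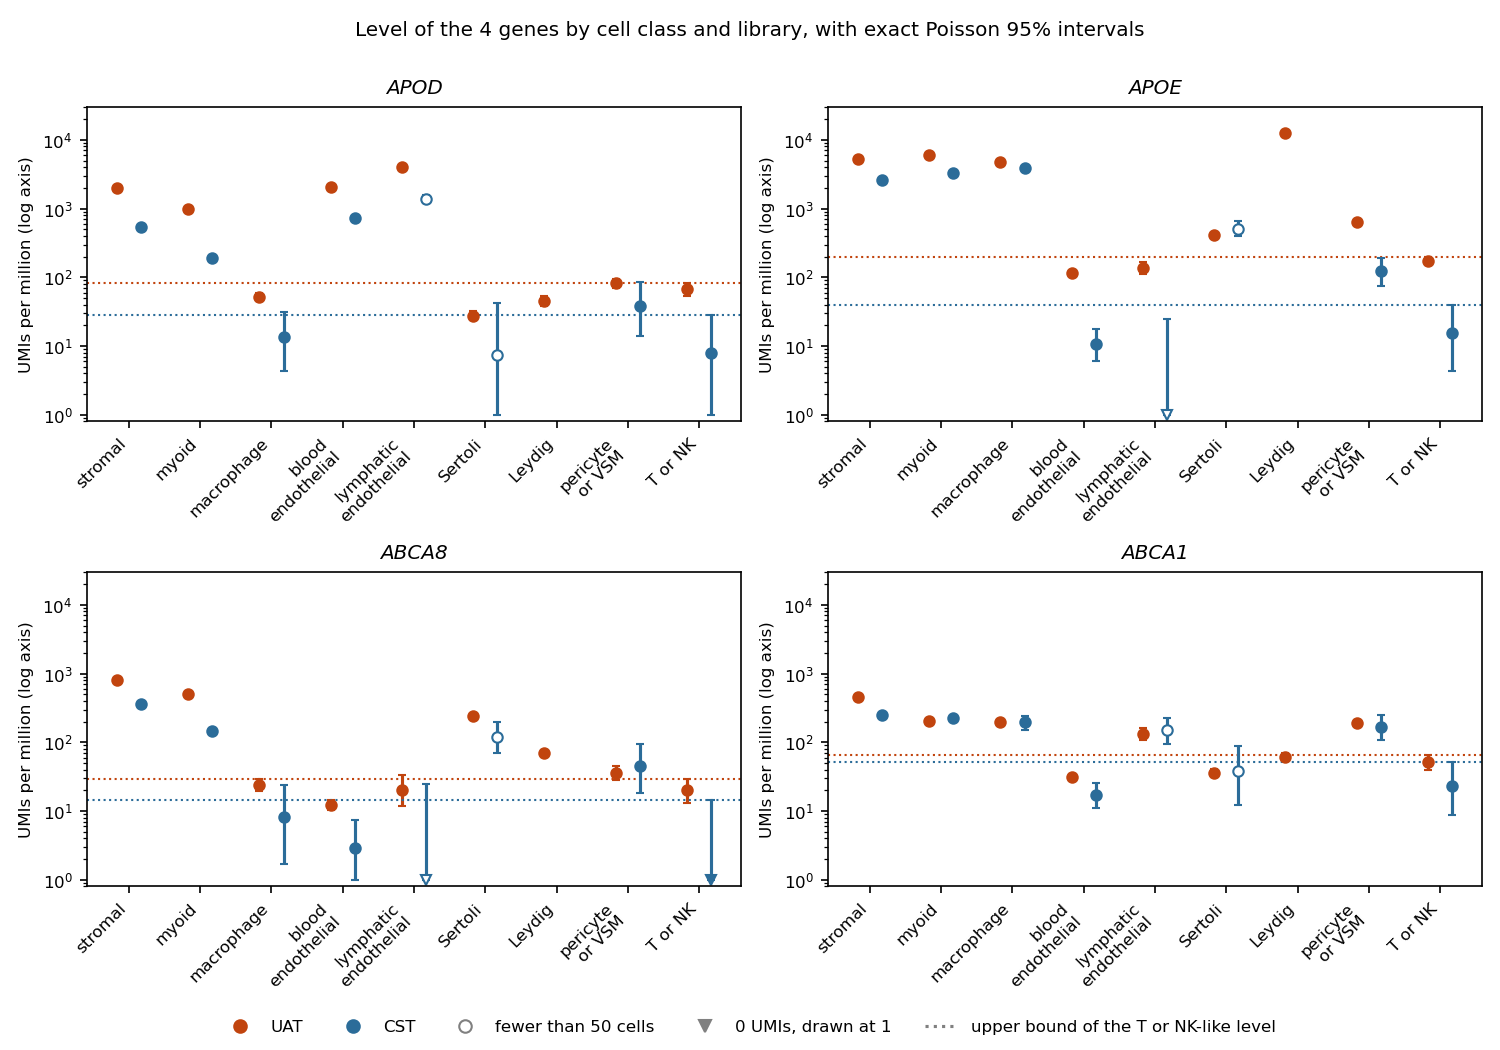
Level of each gene (vertical log axis, CPM) by cell class, UAT in orange-red left of CST in blue, with exact Poisson 95% intervals; dotted lines mark the upper bound of the T or NK-like level in each library, open symbols classes of fewer than 50 cells, and VSM is vascular smooth muscle. APOD is well above the dotted lines in stromal-like, myoid-like and endothelial-like cells, APOE in stromal-like, myoid-like, macrophage-like and UAT Leydig-like cells, and ABCA8 in stromal-like, myoid-like and Sertoli-like cells.

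Stromal-like cells, read as fibroblasts by markers such as DCN, held all 4 genes above background, and all 4 were higher in UAT. That is 4 of 4 at least 1.5-fold higher on the log2(CPM + 10) scale, where 3.21% of the 7659 genes tested were; since the genes were chosen on this contrast, nothing is read from the count. APOD stood at 2006 CPM in UAT and 541 CPM in CST stromal-like cells, a ratio of 3.71 (95% interval 3.59 to 3.84). By log2 ratio it was number 7 from the top of the 7659 genes. APOE stood at 5173 CPM in UAT and 2617 CPM in CST, a ratio of 1.98 (1.95 to 2.01). ABCA8 had 809 CPM in UAT and 366 CPM in CST, a ratio of 2.21 (2.12 to 2.31), and ABCA1 had 459 CPM in UAT and 250 CPM in CST, a ratio of 1.84 (1.75 to 1.93). The median log2 ratio of all genes tested was -0.09, against 0.85 to 1.87 for the 4 members. The UAT cells were deeper, with a median of 7353 UMIs, against 4253 UMIs in CST.

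Peritubular myoid-like cells, the contractile layer round the tubules, showed the same order for 3 of the genes and not for ABCA1. The count was 3 of 4 at least 1.5-fold higher in UAT, where 4.88% of the 7854 genes tested were. APOD was at 984 CPM in UAT and 191 CPM in CST myoid-like cells, a ratio of 5.15 (4.70 to 5.66) and number 6 from the top. ABCA8 was at 512 CPM in UAT and 146 CPM in CST, a ratio of 3.51 (3.16 to 3.91), number 16 from the top. APOE stood at 6074 CPM in UAT and 3318 CPM in CST, a ratio of 1.83 (1.79 to 1.87). ABCA1 stood at 205 CPM in UAT and 225 CPM in CST myoid-like cells, a ratio of 0.91 (0.83 to 1.0), where the same gene had 1.84 in stromal-like cells. The difference between the 2 classes was not tested. The myoid marker list summed to 10923 CPM in UAT and 23810 CPM in CST gated cells, with all 12 markers seen in both; whether that difference has a part in the ratios was not tested.

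Macrophage-like cells, which clear debris and are known to make APOE, had nearly even levels of the genes they carry. APOE stood at 4790 CPM in UAT and 3887 CPM in CST, a ratio of 1.23 (1.17 to 1.30). ABCA1 had 198 CPM in UAT and 195 CPM in CST, a ratio of 1.02 (0.80 to 1.31). APOD (51.1 CPM in UAT and 13.5 CPM in CST) and ABCA8 (23.9 CPM in UAT and 8.1 CPM in CST) were at background, the CST values being 5 and 3 UMIs. These background pairs are nevertheless the 2 of 4 genes past 1.5-fold here, where 12.4% of the 7173 genes tested were higher in UAT. The 86 CST cells limit this class: 5 of them held 30.0% of its APOE UMIs.

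In blood endothelial-like cells the only member above background was APOD. It stood at 2069 CPM in UAT and 719 CPM in CST, a ratio of 2.88 (2.70 to 3.07), number 21 of 8006 genes tested. DCN in the same cells was at 192 CPM in UAT and 32.3 CPM in CST, below its level in T or NK-like cells (299 CPM in UAT and 39.2 CPM in CST), while APOD was above its own level there (67.1 CPM in UAT and 7.8 CPM in CST). Of the 4 genes, 3 were past 1.5-fold, where 4.53% of genes were, but APOE (115 CPM in UAT and 10.8 CPM in CST) and ABCA1 (31.0 CPM in UAT and 17.2 CPM in CST) were at background. ABCA8, at 12.2 CPM in UAT and 2.9 CPM in CST, did not reach the 20 CPM that a tested gene needs in at least 1 library. Both libraries shared the endothelial clusters, which allows the comparison inside each. In the cluster led by EMCN and TM4SF1 (774 UAT and 282 CST cells) APOD was at 1437 CPM in UAT and 503 CPM in CST. In the cluster led by RNASE1, FMO2 and CLDN5, with the venule marker ACKR1 among its leading genes (619 UAT and 86 CST cells), it was at 2781 CPM in UAT and 1213 CPM in CST. The UAT level was the higher in each cluster. Lymphatic endothelial-like cells, marked by PROX1, were at 4043 CPM in UAT (100 cells, 3903 to 4187) and 1372 CPM in CST (37 cells, 1189 to 1574), and 5 cells held 63.9% of the CST UMIs.

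**Figure D2:**
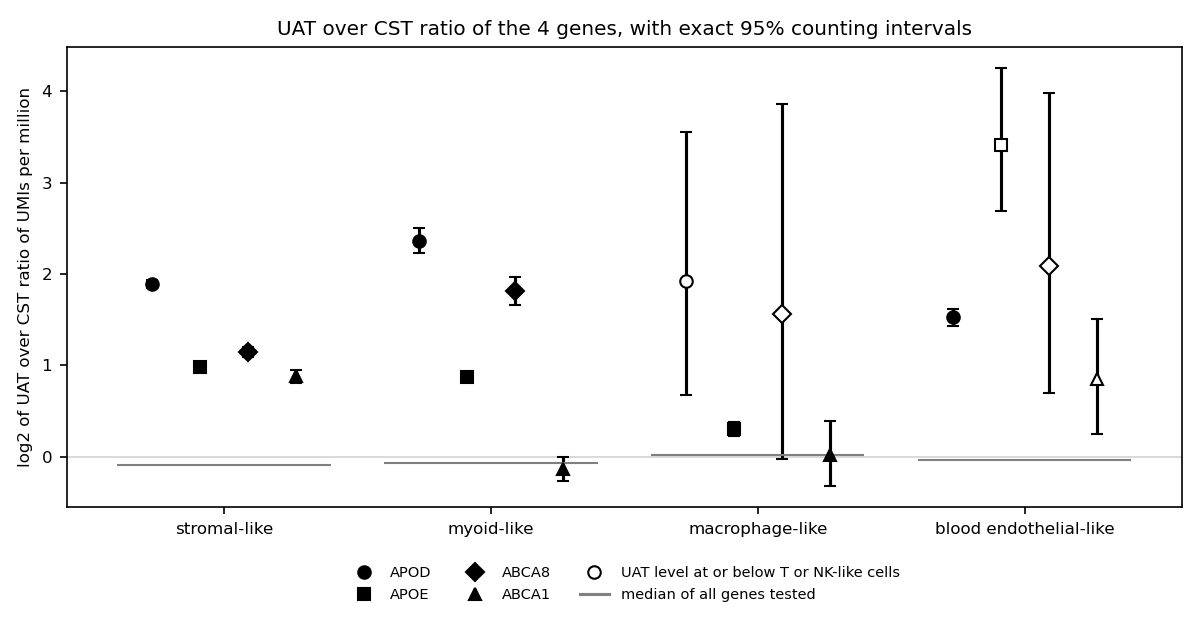
UAT over CST ratio of CPM (vertical axis, log2) for the 4 genes in the 4 classes with at least 50 gated cells in both libraries, with exact 95% counting intervals; open symbols have a UAT level at or below that of T or NK-like cells, and grey lines give the median of all genes tested, on log2(CPM + 10). APOD is the highest filled symbol in the stromal-like, myoid-like and blood endothelial-like classes, and ABCA1 is near 0 in the myoid-like and macrophage-like classes.

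The cell by cell spread shows whether a few cells or most of them carry a level. For APOD the median stromal-like cell had 1581 CPM in UAT and 277 CPM in CST, and the 10th percentile of UAT cells (347 CPM) was above the CST median. In myoid-like cells the median was 818 CPM in UAT and 147 CPM in CST. APOD was thus spread over most UAT cells of both classes, and its 5 richest stromal-like cells held 0.974% of the UMIs in UAT and 4.15% in CST. APOE had a median of 4758 CPM in UAT and 2047 CPM in CST stromal-like cells, and of 5567 CPM in UAT and 2849 CPM in CST myoid-like cells. For ABCA8 the median stromal-like cell had 674 CPM in UAT and 219 CPM in CST, while the median myoid-like cell had 416 CPM in UAT and none in CST. The ranges from the 10th to the 90th percentile overlapped between the libraries for every gene in these 2 classes.

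**Figure D3:**
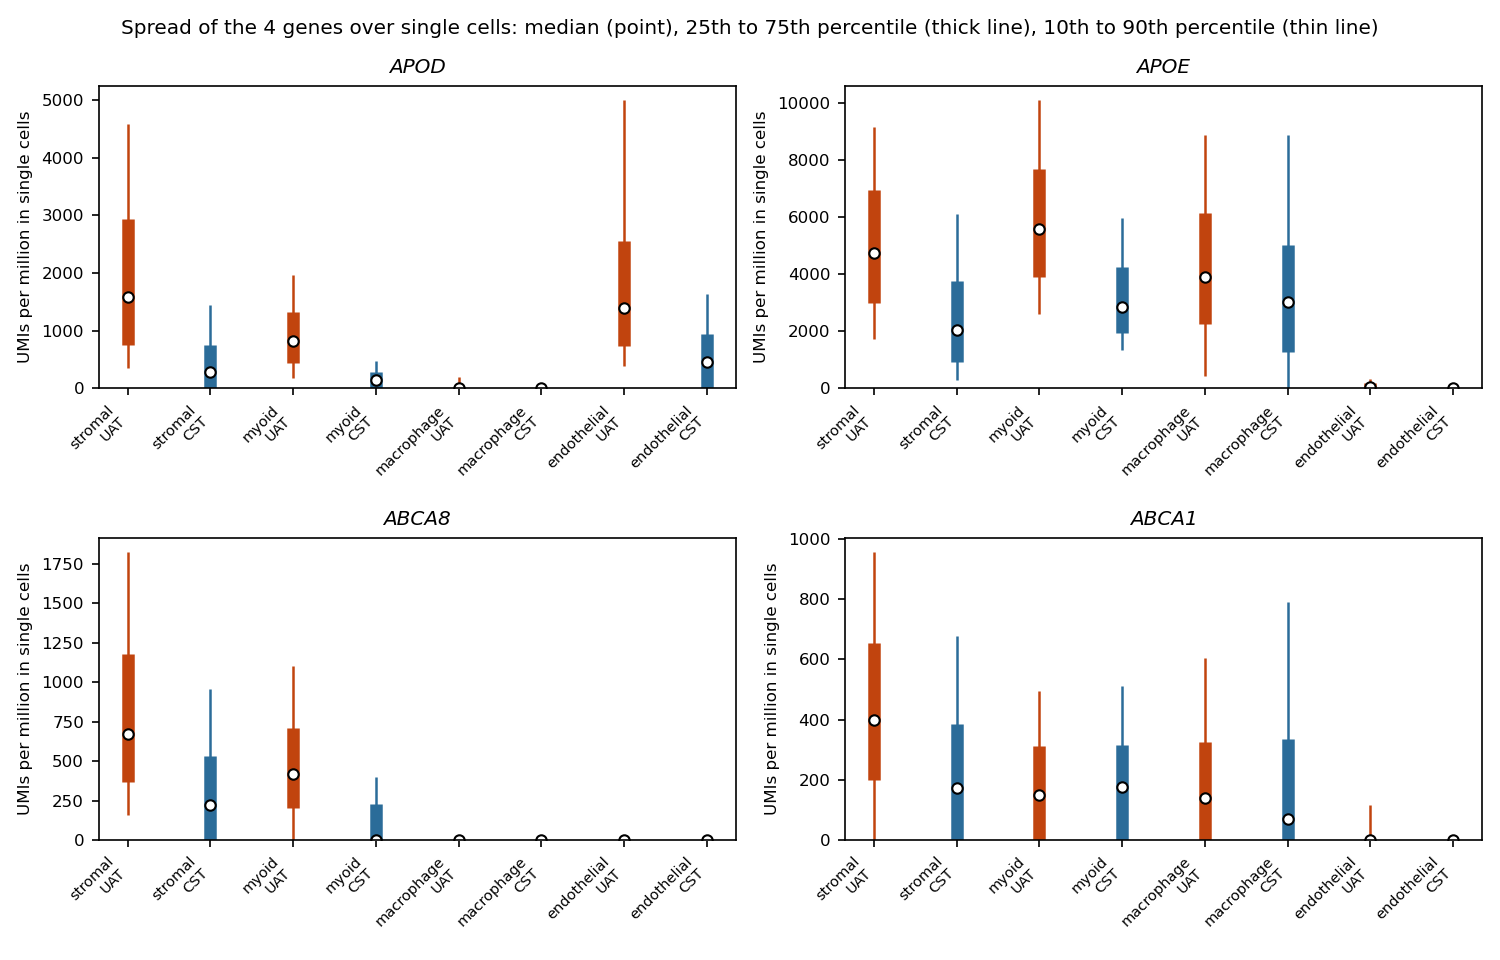
Spread of each gene over single cells (vertical axis, CPM of a cell) in 4 classes, UAT left of CST; points are medians, thick lines the 25th to 75th and thin lines the 10th to 90th percentile. The APOD median of stromal-like cells is 1581 CPM in UAT and 277 CPM in CST, and the ABCA1 ranges of myoid-like cells lie almost on each other.

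Depth was evened by drawing 1000 UMIs from each cell. The share of stromal-like cells with an APOD UMI was then 74.1% in UAT and 34.7% in CST, against 97.5% in UAT and 65.3% in CST before thinning. In T or NK-like cells thinned alike it was 7.1% in UAT and 0% in CST. Myoid-like cells had an APOD UMI in 55.8% in UAT and 13.5% in CST, and blood endothelial-like cells in 70.9% in UAT and 42.6% in CST. For ABCA8 the thinned share was 51.7% in UAT and 27.5% in CST of stromal-like cells, and 38.7% in UAT and 12.3% in CST of myoid-like cells. ABCA1 gave 35.8% in UAT and 20.5% in CST of stromal-like cells but 15.7% in UAT and 19.0% in CST of myoid-like cells, the same order as its CPM. APOE was in 94.6% of UAT and 79.3% of CST stromal-like cells, a share too near its ceiling to show the ratio.

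The stromal-like and myoid-like cells of the libraries fell into separate clusters, with 1552 of the 1598 CST stromal-like cells in a cluster that held no UAT cell; such a cluster may mark the library and not a cell type. The UAT class was made up of 2 clusters, which differed in APOD: 1231 CPM in the cluster led by ABI3BP and COL6A3 (2246 cells) and 2935 CPM in the cluster led by C7 and CFD (2292 cells), where APOD is itself among the leading genes. APOE was at 5519 and 4758 CPM in them, ABCA8 at 760 and 869 CPM, and ABCA1 at 477 and 438 CPM. Few CST cells joined these clusters, 24 in the first and 22 in the other. In the first, APOD stood at 1231 CPM in UAT and 639 CPM (521 to 775) in CST, and ABCA1 at 477 CPM in UAT and 276 CPM (200 to 370) in CST. In the other, APOD stood at 2935 CPM in UAT and 1217 CPM (1017 to 1443) in CST, but ABCA1 at 438 CPM in UAT and 641 CPM (498 to 811) in CST. APOD was the higher in UAT in both clusters, and ABCA1 in the first alone. The myoid-like class was likewise 1 UAT cluster of 1564 cells and 1 CST cluster of 410 cells, with 7 CST cells in the UAT cluster.

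PI16 and MFAP5, markers of adventitial fibroblasts, differed in level between the stromal-like cells: PI16 was at 358 CPM in UAT and 1134 CPM in CST. C7, another marker of the stromal gate, went the other way, at 570 CPM in UAT and 222 CPM in CST. Whether the C7 difference has a part in the APOD ratio was not tested. The cells were split by a UMI of PI16 or MFAP5, a split chosen after the levels were seen and one that also follows depth. Cells with such a UMI (3800 UAT and 1410 CST) gave ratios of 3.81 for APOD (3.68 to 3.94), 2.11 for APOE (2.07 to 2.14), 2.19 for ABCA8 (2.10 to 2.29) and 1.86 for ABCA1 (1.77 to 1.96). Cells without (738 UAT and 188 CST) gave 2.77 for APOD (2.49 to 3.09), 2.42 for ABCA8 (2.08 to 2.83) and 1.54 for ABCA1 (1.30 to 1.83). APOE in them was at 6141 CPM in UAT and 5578 CPM in CST, a ratio of 1.10 (1.06 to 1.15). The APOE ratio of the stromal-like class thus rests on the cells with PI16 or MFAP5, which had 5037 CPM in UAT and 2391 CPM in CST. The 188 CST cells were shallow, with a median of 2594 UMIs. Their Leydig marker list summed to 222 CPM, with 7 of 9 markers seen and CYP17A1 and HSD17B3 at 0, and their macrophage list to 117 CPM, with 5 of 15 markers seen and C1QA, C1QB and C1QC at 0. The other CST stromal-like cells had 175 CPM of the Leydig list and 173 CPM of the macrophage list. STAR was at 18.5 CPM (9 UMIs) in the 188 cells and 2.8 CPM in the other CST cells, and INSL3 at 32.9 and 26.8 CPM. In those other cells CYP17A1 was at 0.3 CPM and C1QA at 0.5 CPM, so their absence from the 188 cells says little. Whether Leydig or macrophage RNA has a part in the APOE level was not tested.

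Sertoli-like cells, which nourish germ cells inside the tubule, and the testosterone-making Leydig-like cells can be described for UAT. ABCA8 was at 239 CPM (227 to 251) in the 270 UAT Sertoli-like cells, above the 20.1 CPM of T or NK-like cells. DCN was at 147 CPM in the same Sertoli-like cells, below its 299 CPM in UAT T or NK-like cells. After thinning, 25% of UAT Sertoli-like cells had an ABCA8 UMI, against 2.7% of UAT T or NK-like cells. The 9 CST Sertoli-like cells gave 120 CPM of ABCA8 (68.9 to 196) from 16 UMIs. APOE was at 418 CPM (402 to 434) in UAT and 512 CPM (398 to 649) in CST Sertoli-like cells, above background in both. Whether Leydig RNA has a part in the APOE level of Sertoli-like cells was not tested. APOD (27.6 CPM in UAT) and ABCA1 (35.5 CPM in UAT) were at background in the class.

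APOE reached 12709 CPM (12593 to 12826) in UAT Leydig-like cells, the highest of the 13 UAT classes with at least 50 cells. The level varied among the 207 cells, with a 10th percentile of 2966 CPM, a median of 8724 CPM and a 90th percentile of 23162 CPM. ABCA8 was at 69.0 CPM (60.7 to 78.1) in these cells, and 3.4% of them had an ABCA8 UMI after thinning, close to the 2.7% of T or NK-like cells. APOD (45.1 CPM) and ABCA1 (60.9 CPM) were at background. The Sertoli-like and Leydig-like cells were deep, with medians of 24358.5 and 17075 UMIs in UAT. UAT B or plasma-like cells lay between them with a median of 21447 UMIs. Mitochondrial shares of the Sertoli-like and Leydig-like cells were 20.2% and 14.4% in UAT, against 6.45% in UAT stromal-like cells.

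Across the classes with at least 50 cells, the order of levels differed from gene to gene. APOD ran in UAT from lymphatic endothelial-like over blood endothelial-like, stromal-like and myoid-like cells to the rest, and in CST from blood endothelial-like over stromal-like to myoid-like cells, with each of these neighbours apart by its counting interval. Mast-like cells came next in UAT with 330 CPM of APOD, but 5 of the 55 cells held 93.3% of its UMIs. APOE ran in UAT from Leydig-like over myoid-like, stromal-like and macrophage-like cells to the rest, and in CST from macrophage-like over myoid-like to stromal-like cells. For ABCA8 stromal-like cells led in both libraries, before myoid-like cells and, in UAT, Sertoli-like cells. ABCA1 was highest in stromal-like cells in UAT; its next places, the myoid-like, macrophage-like and pericyte or vascular smooth muscle-like classes, had overlapping intervals. In CST the stromal-like, myoid-like, macrophage-like and pericyte or vascular smooth muscle-like classes followed each other with overlapping intervals for ABCA1.

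The genes were also read in mural cells of small vessels and in the germline. Among 433 UAT and 84 CST cells like pericytes or vascular smooth muscle, 2 of 4 members were past 1.5-fold higher in UAT and none was lower, where 16.1% of 8376 genes were higher and 30.2% lower. APOE in them was at 638 CPM in UAT and 123 CPM in CST, a ratio of 5.19 (3.31 to 8.65), and APOD at 81.8 CPM in UAT and 38.8 CPM in CST was at background. Of the APOE UMIs, 5 cells held 24.3% in UAT and 73.7% in CST. In spermatogonia-like cells (239 UAT and 694 CST) APOE stood at 385 CPM in UAT and 462 CPM in CST, a ratio of 0.83 (0.78 to 0.89). The class merges undifferentiated and differentiating cells, whose mix may differ between the libraries. Of the 3 members tested there, 2 were past 1.5-fold higher and none was lower, where 10.4% of 8433 genes were higher and 15.1% lower. Those 2 were APOD, at 51.4 CPM in UAT and 4.7 CPM in CST, and ABCA1, at 67.0 CPM in UAT and 34.2 CPM in CST. Both were at background by the rule used here. For ABCA1 in CST that call rests on a wide T or NK-like interval of 8.6 to 51.1 CPM, so it does not show that these cells lack ABCA1.

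Genes of the same pathways were taken from 10 lists: apolipoproteins, lipocalins, ABCA transporters, other lipid transporters, LXR and its targets, lipoprotein receptors, cholesterol handling, lipases, lipid droplets, and partners of APOD in arachidonic acid and progesterone metabolism. Leaving the 4 members out and counting each gene once, 10 of 55 list genes that passed the floor in stromal-like cells were at least 1.5-fold higher in UAT and 4 were lower. In myoid-like cells it was 10 higher and 2 lower of 49, in macrophage-like cells 14 higher and 1 lower of 56, and in blood endothelial-like cells 5 higher and 3 lower of 53. Among the 14 in macrophage-like cells, the ratio intervals of ABCA9 (0.94 to 5.80), SREBF1 (0.93 to 13.8) and PLA2G4A (0.94 to 14.0) held 1. Over all genes tested, 3.21% were higher and 11.3% lower in stromal-like cells, 4.88% higher and 11.6% lower in myoid-like cells, 12.4% higher and 13.6% lower in macrophage-like cells, and 4.53% higher and 11.7% lower in blood endothelial-like cells. Of the list genes counted higher, 9 in stromal-like, 8 in myoid-like, 11 in macrophage-like and 3 in blood endothelial-like cells were also above the UAT T or NK-like level. Whether T or NK-like cells make any list gene themselves was not tested, so a list gene not above that level need not be free RNA. The lists were chosen with earlier results of these data known, around members chosen on this contrast. Nothing is therefore read from the list counts set beside the shares of all genes.

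Among apolipoproteins, 4 of 6 measured in stromal-like cells were higher in UAT and none was lower, with a median log2 ratio of 0.74, beside -0.09 for all genes. Of all genes tested there, 3.21% were higher and 11.3% lower. APOC1, a small apolipoprotein that is listed next to APOE in the feature table, was at 199 CPM in UAT and 35.7 CPM in CST stromal-like cells, a ratio of 5.56 (4.89 to 6.34). In myoid-like cells it was at 272 CPM in UAT and 21.7 CPM in CST, a ratio of 12.5 (9.58 to 16.7), and in macrophage-like cells at 528 CPM in UAT and 419 CPM in CST, a ratio of 1.26 (1.07 to 1.49). The APOC1 and APOE ratios were both nearest 1 in macrophage-like cells among these 3 classes. CLU, the secreted chaperone clusterin, was at 119 CPM in UAT and 63.9 CPM in CST stromal-like cells, and at 1272 CPM in UAT and 658 CPM in CST blood endothelial-like cells, a ratio of 1.93 (1.81 to 2.07) there. APOA1, the main protein of high-density lipoprotein, went the other way in blood endothelial-like cells, with 1244 CPM in UAT and 2044 CPM in CST, a ratio of 0.61 (0.58 to 0.63). Among the lipocalins, PTGDS, which makes prostaglandin D, was at 855 CPM in UAT and 940 CPM in CST stromal-like cells and at 3521 CPM in UAT and 2533 CPM in CST myoid-like cells, under 1.5-fold in both.

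ABCA6, a relative of ABCA8 that is listed in the same run of features as ABCA8 and ABCA9, was at 130 CPM in UAT and 55.1 CPM in CST stromal-like cells, a ratio of 2.35 (2.12 to 2.62), and at 395 CPM in UAT and 311 CPM in CST macrophage-like cells, a ratio of 1.27 (1.05 to 1.55). Of the ABCA list, 2 of 4 measured genes were higher in stromal-like cells, ABCA6 and ABCA9, and 1 of 2 in myoid-like cells. The LXR list, of which ABCA1 is a target, had 1 of 9 measured non-members higher in stromal-like cells, 2 of 8 in myoid-like cells, 2 of 9 in macrophage-like cells and none of 8 in blood endothelial-like cells, and none lower in the 4 classes. Over all genes tested, 3.21% were higher in stromal-like, 4.88% in myoid-like, 12.4% in macrophage-like and 4.53% in blood endothelial-like cells. The shares lower were 11.3%, 11.6%, 13.6% and 11.7% in the same order. The 1 LXR gene higher in stromal-like cells was APOC1, which is also on the apolipoprotein list, and the 2 in myoid-like cells were APOC1 and PLTP. PLTP, which moves phospholipid between lipoproteins, was at 495 CPM in UAT and 342 CPM in CST stromal-like cells (ratio 1.44, 1.38 to 1.51) and at 312 CPM in UAT and 169 CPM in CST myoid-like cells (1.84, 1.66 to 2.04). MYLIP, which degrades the LDL receptor, had 270 CPM in UAT and 182 CPM in CST stromal-like cells. Its UAT level did not pass that of UAT T or NK-like cells, 238 CPM, and whether those cells make MYLIP themselves was not tested. The 2 LXR genes higher in macrophage-like cells were MYLIP and SREBF1. MYLIP had 243 CPM in UAT, near that T or NK-like level, and 149 CPM in CST, a ratio of 1.63 (1.24 to 2.18). SREBF1 had 22.7 CPM in UAT and 8.1 CPM in CST, a ratio of 2.80 whose interval (0.93 to 13.8) holds 1.

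Receptors and enzymes that act on lipoproteins differed by class. LRP1, the large receptor that takes up APOE particles, was at 548 CPM in UAT and 603 CPM in CST stromal-like cells, a ratio of 0.91 (0.88 to 0.94). In macrophage-like cells 3 of 10 receptors were higher and none was lower, where 12.4% of all genes were higher and 13.6% lower. CD36, a fatty acid and oxidised lipoprotein receptor, had 616 CPM in UAT and 154 CPM in CST, a ratio of 4.00 (3.08 to 5.30). The scavenger receptor MSR1 had 343 CPM in UAT and 178 CPM in CST, a ratio of 1.93. The scavenger receptor STAB1 had 464 CPM in UAT and 300.1 CPM in CST, a ratio of 1.55 (1.28 to 1.89). MSR1 is itself a marker of the macrophage gate. The gate markers CD163 (2381 CPM in UAT and 1387 CPM in CST) and C1QA (2614 CPM in UAT and 1800 CPM in CST) were also higher in UAT. The other gate markers are not given here, and whether this shift has a part in the receptor ratios was not tested. In blood endothelial-like cells CD36 was lower in UAT, with 28.9 CPM in UAT and 56.7 CPM in CST, a ratio of 0.51 (0.40 to 0.66). LPL, the lipase that frees fatty acids from lipoproteins, was at 206 CPM in UAT and 18.9 CPM in CST macrophage-like cells, a ratio of 10.9 (5.26 to 27.1), and at 211 CPM in UAT and 115 CPM in CST stromal-like cells, a ratio of 1.84 (1.71 to 1.98). HSPG2, the heparan sulfate proteoglycan perlecan of basement membranes, was lower in UAT, with 88.3 CPM in UAT and 260 CPM in CST myoid-like cells, a ratio of 0.34 (0.31 to 0.38). CH25H, which makes 25-hydroxycholesterol, was at 423 CPM in UAT and 172 CPM in CST myoid-like cells, a ratio of 2.46 (2.23 to 2.72). G0S2, an inhibitor of triglyceride breakdown, had 418 CPM in UAT and 172 CPM in CST myoid-like cells, a ratio of 2.43 (2.20 to 2.69).

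Of the partners of APOD, 1 was higher and 2 were lower of 8 in stromal-like cells, 1 higher and 1 lower of 6 in myoid-like cells, 3 higher and none lower of 9 in macrophage-like cells, and 2 higher and 1 lower of 8 in blood endothelial-like cells. In the same order of classes, 3.21%, 4.88%, 12.4% and 4.53% of all genes tested were higher. The shares lower were 11.3%, 11.6%, 13.6% and 11.7%. PTGES, which makes prostaglandin E, was at 74.1 CPM in UAT and 21.8 CPM in CST stromal-like cells, a ratio of 3.40 (2.88 to 4.03). PLA2G2A, a secreted phospholipase that frees fatty acids, was at 59.7 CPM in UAT and 131 CPM in CST stromal-like cells, a ratio of 0.46 (0.42 to 0.50). LEPR, the leptin receptor, was at 372 CPM in UAT and 134 CPM in CST blood endothelial-like cells, a ratio of 2.78 (2.40 to 3.24), and the prostaglandin synthase PTGS2 had 334 CPM in UAT and 131 CPM in CST there, a ratio of 2.55 (2.20 to 2.98). BSG, reported as an APOD receptor, was at 148 CPM in UAT and 255 CPM in CST stromal-like cells, near its level in T or NK-like cells (123 CPM in UAT and 278 CPM in CST), and it was also called lower in myoid-like cells (138 CPM in UAT and 219 CPM in CST) and in blood endothelial-like cells (153 CPM in UAT and 236 CPM in CST). In macrophage-like cells ALOX5AP, which serves leukotriene synthesis, had 764 CPM in UAT and 460 CPM in CST, a ratio of 1.66 (1.43 to 1.95). PGRMC2, a progesterone receptor membrane component, had 89.7 CPM in UAT and 43.3 CPM in CST macrophage-like cells, a ratio of 2.07 (1.26 to 3.67). The phospholipase PLA2G4A had 23.0 CPM in UAT and 8.1 CPM in CST macrophage-like cells, a ratio of 2.83 (0.94 to 14.0). The CST levels of both did not pass the CST T or NK-like level by the interval rule.

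**Figure D4:**
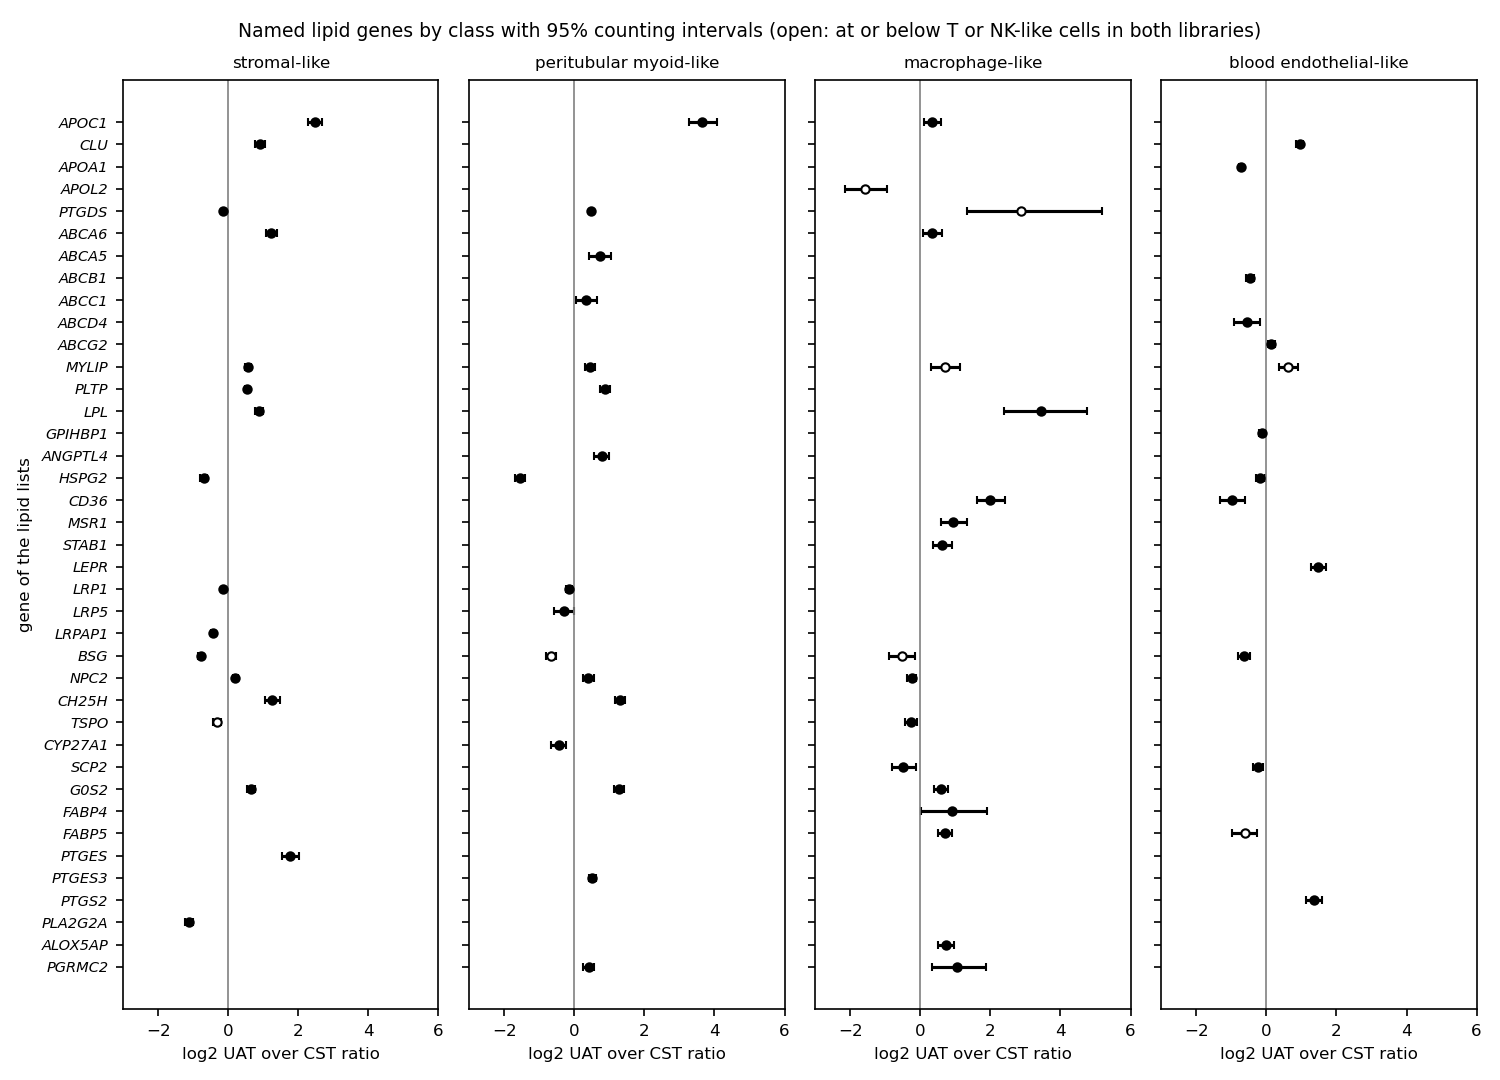
UAT over CST ratio (horizontal axis, log2) of the pathway genes named by rule in each class, with 95% counting intervals; filled points are above the T or NK-like level in at least 1 library. APOC1 is far to the right in stromal-like and myoid-like cells, and CD36 and LPL in macrophage-like cells, while HSPG2 lies to the left of 0 in stromal-like and myoid-like cells.

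The genes whose levels ran most like each member were sought over 21 units, each a class of at least 50 cells in 1 library, among 9370 genes. The units share 2 libraries and their free RNA, so these correlations are descriptions. For APOD the closest were the adaptor SHC1 (Pearson r of log2(CPM + 10) 0.88), the chemokine scavenger ACKR3 (0.88), SEMA6A (0.88), HOXD9 (0.85) and PGM5 (0.84). For APOE the closest included the heparan sulfate proteoglycan SDC2 (0.83), TST (0.83), NUPR1 (0.82) and the receptor LRP1 (0.81), and APOC1 had 0.79. ABCA8 ran most like FXYD6 (0.94), CDO1 (0.92), SERPINF1 (0.92), PWWP3B (0.91) and ITGB8 (0.91), and ABCA1 like PMP22 (0.90), PCYOX1 (0.89), CYBRD1 (0.87), IFFO1 (0.86) and TRPS1 (0.85). The ranking moved with the units: without the B or plasma, mast and neutrophil or monocyte-like classes, 4 of the 5 genes were shared for APOD, 3 for APOE, 3 for ABCA8 and 2 for ABCA1. Between cells of a class the members ran together weakly at most: in stromal-like cells APOD and ABCA8 had a Pearson r of 0.28 in UAT and 0.26 in CST, and APOD and APOE 0.05 in UAT and 0.09 in CST. In myoid-like cells APOE and ABCA8 ran weakly against each other, with a Pearson r of -0.13 in UAT and -0.15 in CST.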

How the data were processed

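The authors deposited filtered gene by barcode matrices of raw UMI counts (10x Genomics 3′ kit, version 3, per the labels' protocols). Cell Ranger 3.0.1 and the mouse build mm10 are listed in the submitters' processing notes, while Cell Ranger 5.0.0 is named per the file headers and the feature symbols are those of macaque, so the build is uncertain and no coordinates are given. Members, lists and tests were chosen with earlier results of these data known. From the counts, barcodes with at least 500 genes were kept. Neighbours of simulated doublets were removed at 0.8% per 1000 barcodes (9.88% in UAT and 12.0% in CST). Cells were clustered by Leiden (leidenalg 0.10.2, resolution 1) on 2000 variable genes without the members, 40 components and 15 neighbours, with no integration. A cluster stayed unnamed where 2 lineages scored alike, or where its UMIs were low and no marker led it. Somatic cells then needed at least 2 own markers and a larger share of that list than of any other somatic list; germ lists were left out because germ RNA was found in every CST class. UMIs were summed per class and library. A class was compared from 50 cells in both libraries, a gene tested from 20 CPM in either and called at 1.5-fold with 10 CPM added. Intervals are exact (scipy 1.17.1; Poisson for levels, conditional binomial for ratios, Clopper-Pearson for shares). Named genes were the members, up to 3 per list and class whose interval bound was furthest from 1 (at least 50 CPM in the higher library), gate markers, and the 5 genes most alike per member. ABCA9, SREBF1, PLA2G4A, PRM1, PI16, MFAP5 and the genes leading a cluster were named after their values were seen. 1 of the genes most alike is not reported here.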

Additional observations from a re-analysis of the deposited data

Results flagged for a closer look

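APOE in spermatogonia-like cells had 385 CPM in UAT (239 cells) and 462 CPM in CST (694 cells), a log2 ratio of -0.26 on the log2(CPM + 10) scale, where stromal-like cells had 0.98. It stands here because the same gene ran opposite ways in the 2 classes. The spermatogonia-like class merges undifferentiated and differentiating cells, and its median cell showed 6 undifferentiated markers in UAT and 3 in CST. Whether this mix has a part in the ratio was not tested. The difference was not tested.

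The other values are signals in cells outside the comparisons, at a level above that of T or NK-like cells. APOD was at 4043 CPM in UAT lymphatic endothelial-like cells. An unnamed cluster led by RGS5 and HIGD1B, with endothelial and pericyte markers scoring alike, had 2852 CPM of APOD in its 65 UAT cells and 723 CPM in its 36 CST cells. A second unnamed cluster, led by FATE1, HOPX and CCK and with Sertoli as its highest marker score, was left without a name for its low UMI counts. It had 471 CPM of APOE in 447 UAT cells and 241 CPM in 56 CST cells, and 154 CPM of ABCA8 in UAT and 20.9 CPM in CST, the last from 2 UMIs.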

How the results depend on the processing

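No paired analysis was possible because each position has 1 library. For the member ratios, 60 of 60 alternative values in stromal-like cells, 52 of 52 in myoid-like, 51 of 56 in macrophage-like and 53 of 56 in blood endothelial-like cells kept their direction; 20, 9, 5 and 8 of them moved beyond the counting interval. The count of members at least 1.5-fold higher stayed at 4 in stromal-like cells under every alternative but the cells without PI16 and MFAP5 (3), and at 3 in myoid-like cells under every alternative run. In macrophage-like cells it was 2, but 1 with no doublet removal, with the named cluster alone and without the 5 richest cells, and 0 with the T or NK-like level taken out as free RNA. In blood endothelial-like cells it was 3, with 2 to 4 under the other alternatives, but 1 with free RNA taken out. That setting turned round APOD (-0.65) and ABCA8 (-0.39) in macrophage-like and ABCA8 (-0.36) in blood endothelial-like cells, on the log2 scale, as its construction removes genes at background. Of 8 Sertoli-like and Leydig-like levels, 4 were above background, but 2 with no doublet removal; the cause was not tested. A restriction to clusters shared by both libraries gave no value for stromal-like and myoid-like cells, which share none of at least 50 cells each. The splits by PI16 and MFAP5, the removal of shared barcodes and the ranking of alike genes without 3 small immune classes were chosen after seeing the data. The 86 CST macrophage-like and 9 CST Sertoli-like cells set the limit of precision.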

Other observations

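Pericyte or vascular smooth muscle-like cells had an APOE UMI in 26.4% of UAT and 4.35% of CST cells after thinning to 1000 UMIs, the CST share being 3 of 69 cells (exact interval 0.91% to 12.2%). T or NK-like cells thinned alike had one in 12.7% in UAT and 1.63% in CST. The ABCA1 of the pericyte or vascular smooth muscle-like cells stood at 191 CPM in UAT and 168 CPM in CST, a ratio of 1.14 (0.76 to 1.76), above background in both.

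Neutrophil or monocyte-like cells, 55 in UAT and 9 in CST, had APOE at 317 CPM (266 to 375) in UAT and 408 CPM (237 to 653) in CST. Spermatocyte or spermatid-like cells, 7808 in CST, had 3.5 CPM of APOE, 0.8 CPM of APOD, 0.3 CPM of ABCA8 and 1.3 CPM of ABCA1, the lowest level of each gene but ABCA8 among CST classes of at least 50 cells. ABCA8 had 0 UMIs in the CST T or NK-like cells, which allows up to 14.4 CPM by the exact Poisson interval. B or plasma-like cells, 85 in UAT and 6 in CST, had APOD at 122 CPM (108 to 138) in UAT and 11.8 CPM in CST, the last from 1 UMI.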
